A study of Rattus norvegicus with 8 samples.

Results

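Gpm6a and Gpm6b are the genes of neuronal membrane glycoproteins M6A and M6B, and they are described here in rat lung tumors induced by NNK, in matched normal lung tissues and in blood. The array holds 1 probe for each of these 2 genes, among 14274 mRNA probes that name 13888 genes. The probes were found by their RefSeq transcript identifiers. Gpm6a was selected on its log2 signal in lung tumor relative to normal lung, the lowest ratio of all mRNA probes measured in every lung sample, so that difference is described without a test. Gpm6b came in as its relative and not by its own value.

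NNK, 4-(methylnitrosamino)-1-(3-pyridyl)-1-butanone, is a nitrosamine of tobacco smoke that causes lung tumors in F344 rats. All 8 samples came from male F344 rats in week 95, and each was hybridised with 1 dye to its own array of lncRNA and mRNA probes. The lung samples were 3 normal lung tissues and 3 matched lung tumors, all of them from NNK-treated rats, so no lung of an untreated rat was compared. The tumors were moderately differentiated adenocarcinomas according to the study. The other 2 arrays held the clot of whole blood from the control group and from the NNK treatment group, with 1 sample each and no replicate. Every array here is a mixture of cell types, so fewer cells of a type and less RNA per cell cannot be told apart.

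M6A and M6B are closely related proteolipids, glycoproteins that pass through the cell membrane several times. M6A is best known in neurons, where it lies on growing neurites and spines and is involved in the formation of filopodia, and M6B is found in neurons and in glial cells. RefSeq, on the GRCr8 assembly, lists 6 transcripts of Gpm6a and 12 of Gpm6b; which of them each probe reads was not analysed here.

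The 75th percentile of the processed signal was 1191 to 1330 on the normal lung arrays, 1257 to 1278 on the tumor arrays, 95.4 in control blood and 206 in NNK blood. The scanner software marked 4.92% to 8.62% of the bright spots as outliers on the normal lung arrays and 15.9% to 25.3% on the tumor arrays. The 3 normal lung arrays differed from each other by 0.457 to 0.783 times the variance expected from repeat spots, and tumor arrays 2 and 3 by 0.46 times. They therefore differed by less than the sampling noise, and each of these sets was counted as 1 sample where a mean is given with its SD and n. The fitted differences, their SEs, the calls and the limits against blood used all 6 lung arrays, so those SEs and p-values rest on fewer independent samples than arrays. Tumor array 1 stood apart from tumor arrays 2 and 3, by 2.85 and 3.18 times that variance. By the recorded scan date it was grouped with the normal lung arrays, and tumor arrays 2 and 3 with each other. Sample and scan therefore cannot be told apart among the tumors. The surfactant genes Sftpb, Sftpa1 and Sftpd, which mark type 2 alveolar cells, gave signals above background in every normal lung and lung tumor sample.

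Gpm6a was bright in normal lung and dim in lung tumor. Its processed signal, the scanner's brightness after background subtraction in arbitrary units, was 33687, 37321 and 34911 on normal lung arrays 1, 2 and 3. On lung tumor arrays 1, 2 and 3 it was 388, 366 and 337. The groups lay far apart: the lowest normal lung signal was 86.8 times the highest tumor signal, while the signals within each group stayed close together. All 6 lung spots of Gpm6a were well above background, none was saturated and none carried an outlier mark.

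After quantile normalization of the 6 lung arrays, the log2 signal of Gpm6a was 15.03, 15.07 and 15.08 in normal lung and 8.55, 8.43 and 8.30 in lung tumor. The lung tumors were therefore lower by a log2 difference of -6.63 ± 0.08 (SE over all 6 arrays), or 99.1-fold. With near-identical arrays counted once, the tumor mean was 8.46 ± 0.13 (SD, n = 2) against 15.06 in normal lung (n = 1), and the difference was -6.60 ± 0.22 (SE). In the values normalized by the authors over all 8 arrays, Gpm6a was 14.13, 14.18 and 14.20 in normal lung and 7.87, 7.83 and 7.74 in lung tumor, a difference of -6.36. Slides were inferred from the recorded scan date, by which the 3 normal lungs and tumor 1 shared 1 slide. Within that slide the log2 difference of Gpm6a was -6.51 and rested on tumor 1 alone.

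**Figure D1:**
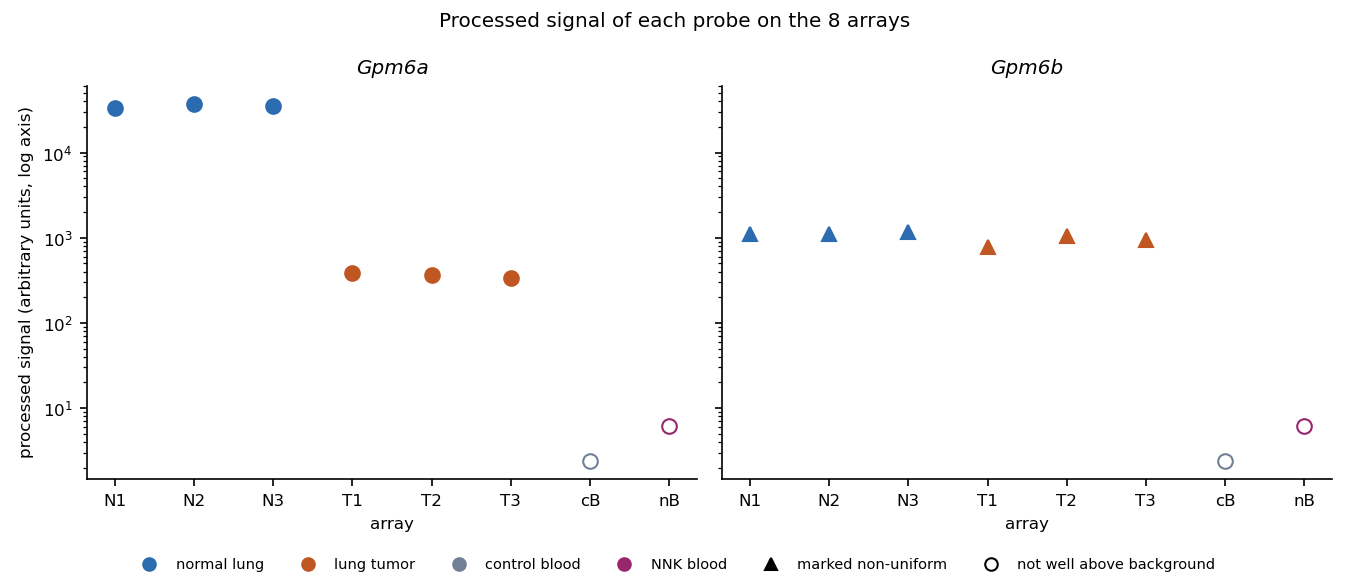
Processed signal (arbitrary units, log axis) of the Gpm6a and Gpm6b probes on the 3 normal lung (N1 to N3), 3 lung tumor (T1 to T3), control blood (cB) and NNK blood (nB) arrays, 1 point an array, with triangles for spots marked non-uniform and open circles for spots not well above background. Gpm6a lay at 33687 or more in normal lung and at 388 or less in tumor, whereas Gpm6b lay between 786 and 1168 on the lung arrays.

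Among 7116 mRNA probes with a signal clearly over background in every lung sample, Gpm6a held rank 1 by the size of its lower signal in tumor, which is how it was picked. Just behind it, Cyp2c13, a cytochrome P450 gene, had a log2 difference of -5.75, and Ttr, which encodes the thyroid hormone carrier transthyretin, one of -5.73. Gpm6a was picked for this rank, so its distance to the next genes describes the ranking only. Gpm6a also held rank 1 of 9755 probes when spots with outlier marks were kept. The fit gave larger falls for 4 mRNA probes, those of Slc26a3, Nanog, Tbx22 and Apoh, each of which was well above background on 0 or 1 of the 3 tumor arrays. Their tumor levels are therefore only bounds, whereas the Gpm6a signal was measured on both sides. The fitted fall of Slc26a3 was the largest, -9.06, from 12.31 in normal lung to 3.25 in tumor. The rank of Gpm6a therefore holds only among probes with a signal over background on every lung array.

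**Figure D2:**
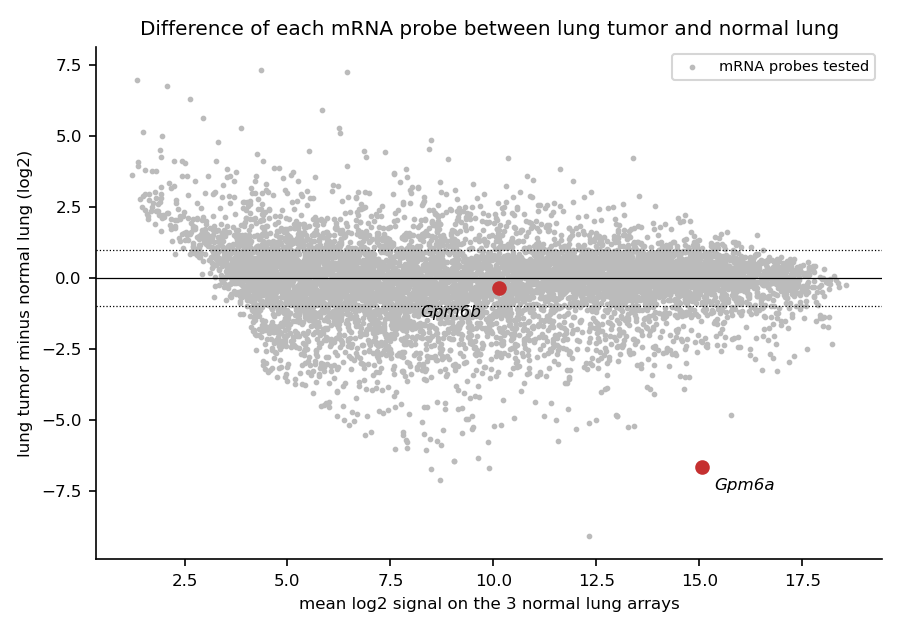
Lung tumor minus normal lung (log2) of each tested mRNA probe against its mean log2 signal on the 3 normal lung arrays; red points are Gpm6a and Gpm6b with their standard errors, which are smaller than the points, and dotted lines mark 2-fold. Gpm6a, which was picked for this difference, lies at -6.63, and Gpm6b lies between the dotted lines.

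Gpm6b did not show a difference of this size. Its processed signal was 1095, 1095 and 1168 on normal lung arrays 1, 2 and 3, and 786, 1038 and 934 on lung tumor arrays 1, 2 and 3. All 3 tumor signals lay below all 3 normal lung signals, but the lowest normal lung signal was only 1.05 times the highest tumor signal. The scanner error of each of these signals was 10% to 10.9%, which exceeds that gap.

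The log2 signal of Gpm6b was 10.14, 10.03 and 10.26 in normal lung and 9.59, 9.98 and 9.82 in lung tumor. Its log2 difference was -0.34 ± 0.12 (SE; 95% interval -0.65 to -0.04), a fold of 1.27, with an adjusted p of 0.05 from limma over all 15803 probes. Gpm6b did not reach the 2-fold limit required together with an adjusted p of at most 0.05, so it was not called, whereas 15.3% of the 11432 mRNA probes in the same fit were called lower and 11.7% higher. With near-identical arrays counted once, its tumor mean was 9.75 ± 0.22 (SD, n = 2) against 10.14 in normal lung (n = 1), and the adjusted p of limma was then 0.334.

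The Gpm6b spot was marked as non-uniform on all 6 lung arrays, a pattern it shared with 292 of 10638 bright mRNA spots (2.74%). Left out with its marks, it could not be tested, so the values above kept marked spots. Its size depended on how the spot was summarised. The median pixel signal minus local background of Gpm6b was 1210, 1337 and 1330 on the normal lung arrays and 825, 684 and 566 on the tumor arrays. The processed signal was 0.819 to 0.905 times this value in normal lung, but 0.953, 1.52 and 1.65 times in tumors 1, 2 and 3. From the median signals the log2 difference was -0.98 ± 0.14 (SE), with an adjusted p of 0.00143 from limma, and normexp background correction gave -0.92. Gpm6b thus lay below normal lung in each tumor by either summary, with a difference between the group means of under 2-fold. Within the slide that held the 3 normal lungs and tumor 1, its log2 difference was -0.55. Of the 2 genes, only Gpm6a was at least 2-fold lower in lung tumor under each processing alternative tried. From the median signals, however, Gpm6b lay closer to the 2-fold limit than its SE. Single arrays were left out only with the processed signals.

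**Figure D3:**
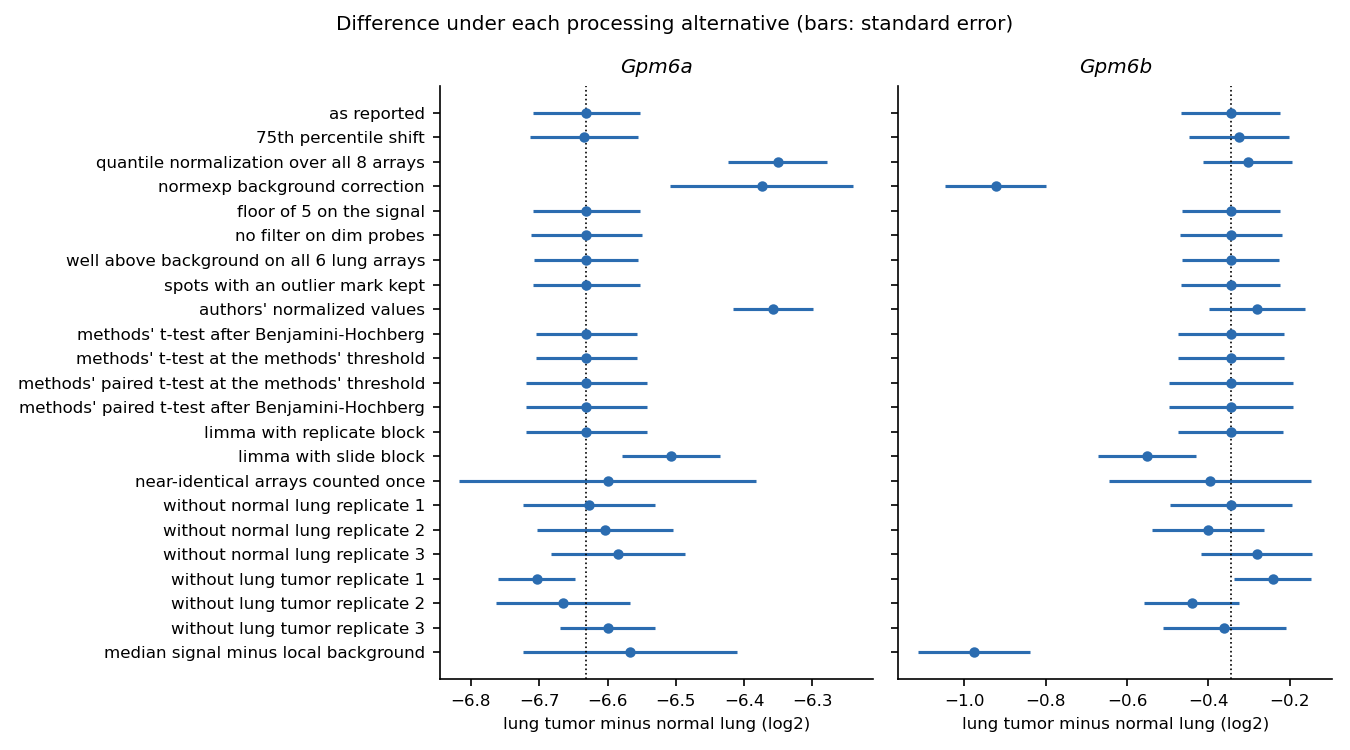
Lung tumor minus normal lung (log2, points) with its standard error (bars) for Gpm6a on the left and Gpm6b on the right, under the processing as reported and under each alternative; the 2 horizontal axes have different ranges. Gpm6a ranged from -6.70 to -6.35, and Gpm6b from -0.98 to -0.24.

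Gpm6a was not detectable in blood. Its processed signal was 2.39 in control blood and 6.25 in NNK blood, the lowest value on each array, and neither spot was well above background. Of all mRNA spots, 23.1% in control blood and 22.2% in NNK blood lay within 0.1% of that lowest value. No difference between the blood samples can be given for Gpm6a. After quantile normalization of all 8 arrays, Gpm6a was at least 720-fold higher in normal lung than in control blood, and at least 8.81-fold higher in lung tumor. Against NNK blood these limits were 751-fold and 9.20-fold. They compare the mean of the 3 lung arrays with the lowest spot well above background on the blood array, and they depend on the scaling. With arrays shifted to a common 75th percentile, they were 228-fold and 2.29-fold against control blood and 188-fold and 1.89-fold against NNK blood. The order of Gpm6a levels was therefore normal lung, lung tumor, then both bloods, whose order is unknown.

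Gpm6b was at the same lowest values, 2.39 in control blood and 6.25 in NNK blood. It was at least 24.9-fold higher in normal lung and at least 20.1-fold higher in lung tumor than in control blood, and against NNK blood the limits were 25.9-fold and 21.01-fold. With the 75th percentile shift, these limits came to 7.22-fold, 5.76-fold, 5.96-fold and 4.76-fold, in the same order. Normal lung and lung tumor were neighbours in the order of Gpm6b levels, and their difference did not pass both limits.

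Of 20 listed genes of filopodium formation and of M6 partners, 15 had a probe and 10 were tested with marked spots left out. Among these, 2 were lower and 2 higher in lung tumor, the median log2 difference was 0.17, and over all 8637 mRNA probes tested it was -0.0010, with 16.8% called lower and 11.5% higher. With near-identical arrays counted once, with normexp, with the median signal or with the methods' paired test after Benjamini-Hochberg, 1 was lower and 1 higher, and 1 was higher without normal lung 3 or without tumor 1. Enah, an actin regulator at filopodium tips, was 3.33-fold lower and its relative Vasp 5.23-fold higher (adjusted p from limma 5.07e-05 and 8.83e-06). The tyrosine kinase gene Src was 2.42-fold lower and Msn, which links actin to the membrane, 2.04-fold higher; both were named after their values were seen. The kinase gene Pak1 and the small GTPase gene Cdc42 had log2 differences of 0.30 and 0.07 and were not called. Coro1a, whose protein coronin has been linked to M6A in neurons, and the GTPase gene Rac1 were measured only with marked spots kept, with log2 differences of 0.07 and 0.01.

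Of 14 listed genes of myelin and glial membranes, 12 were tested, of which 3 were lower and 1 was higher, against 16.8% and 11.5% of all mRNA probes tested. Their median log2 difference was -0.22, and with near-identical arrays counted once 1 was lower and 1 higher. The myelin genes Mbp, Cnp, Mog and Mal had log2 differences of -0.21, 0.06, -0.24 and 0.14, and none was called. The genes called lower were Cldn11, a tight junction gene (-2.97), Pmp22, a peripheral myelin gene also used in other membranes (-1.06), and Ugt8, an enzyme of galactolipid synthesis (-1.31). The gene called higher was the neurotrophin receptor gene Ngfr (2.94). These 4 were named after their values were seen. Mbp, Cnp, Mog and Mal were only the first 4 tested genes of the list. The part of myelin or glial cells in the Gpm6a difference was not tested.

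Of 11 neuronal and neuroendocrine genes tested, 3 were lower and 2 higher in lung tumor, against 16.8% and 11.5% of all mRNA probes tested, with a median log2 difference of -0.12. With near-identical arrays counted once, 1 was lower and 1 higher. Without tumor 2 or without tumor 3, 1 was lower, while 0 were higher without tumor 1 or without tumor 2, and 1 without normal lung 2 or without normal lung 3. Uchl1, a ubiquitin hydrolase of neurons, was higher by 2.95 on the log2 scale, and Nefl, a neurofilament gene, by 1.18. The genes called lower were Prph, which encodes the intermediate filament peripherin (-4.98), Syp, the synaptic vesicle gene synaptophysin (-5.30), and Ncam1 (-1.02). Prph, Ncam1 and Nefl were named after their values were seen. The Syp value had an SE of 1.69, and its probe was well above background on 4 of the 6 lung arrays. Chga and Tubb3, with -0.12 and 0.09, were not called.

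The probes whose profile over the 6 lung arrays was closest to that of Gpm6a were sought among 6550 mRNA probes, by the root mean square distance between log2 profiles set relative to normal lung. The closest was Tbx22, a T-box transcription factor gene, at a distance of 0.163. It was followed by Mug1, a proteinase inhibitor gene of plasma (0.306), the pluripotency factor gene Nanog (0.356), Apoh, an apolipoprotein gene (0.374), and Serpina3c, a serine proteinase inhibitor gene (0.447). Each had a clear signal in all 3 normal lungs but in only 0 or 1 of the tumors, so their likeness to Gpm6a in tumor compares a measured signal with signals at or near background. Tbx22, Nanog and Serpina3c were above background on no tumor array and were at least 40.3-fold, 46.5-fold and 58.7-fold lower in tumor. The distance rests on 2 groups of arrays and describes these arrays only.

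For Gpm6b, the closest of 10008 probes with marked spots kept were Ces1dl1, a carboxylesterase gene (0.0786), the tumor suppressor gene Nf2 (0.0807) and Ccdc175 (0.0838). All 3 were above background on all 6 lung arrays. Their log2 differences in tumor were -0.43, -0.35 and -0.28, and in each of them, as in Gpm6b, tumor 1 was the lowest array. They were chosen by closeness to the Gpm6b profile in processed signal, so this shared order follows from the choice. In the median signals of Gpm6b, tumor 1 was instead the highest tumor (log2 9.62 against 9.37 and 9.11).

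**Figure D4:**
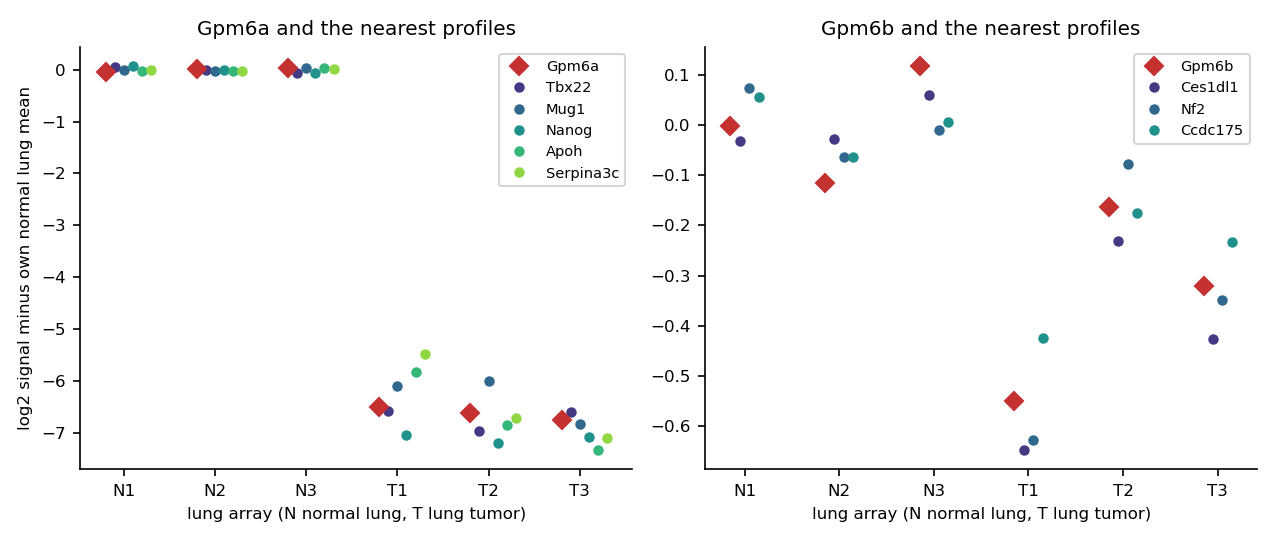
Log2 signal minus the gene's own normal lung mean on the 6 lung arrays (points, side by side for each array) for Gpm6a with its 5 closest mRNA probes on the left and Gpm6b with its 3 closest on the right. All 6 genes of the left panel lie near 0 in normal lung and below -5 in lung tumor. In the right panel, drawn from processed signals, tumor 1 is lowest for each gene.

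The genes beside Gpm6a and Gpm6b on their chromosomes were taken from the RefSeq gene order on GRCr8, 5 protein-coding genes on each side. Of the 10 around Gpm6a, 6 had a probe and 3 were tested. Spata4 was lower by 2.54 on the log2 scale (adjusted p from limma 0.00274), whereas Asb5 (-0.79) and Cep44 (0.04) were not called. The Spata4 probe was well above background on 4 of the 6 lung arrays, so its size is uncertain, and it was not called with normexp, with a signal over background required on all 6 arrays, with the methods' paired test after Benjamini-Hochberg, or with near-identical arrays counted once. With marked spots kept, Hpgd, which encodes the enzyme that inactivates prostaglandins, was also lower, by 3.21, and Fbxo8 (-0.64) was not called. Of the 10 around Gpm6b, 7 had a probe and 3 were tested. These were Tceanc (0.89), Ofd1 (0.37) and Gemin8 (0.23), and none was called. Gpm6a was picked for the size of its difference, so the smaller differences of the genes tested beside it follow from that choice.

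Markers of several cell types moved together with Gpm6a. With marked spots left out, all 7 tested mesothelial markers were lower in lung tumor, against 16.8% of all mRNA probes tested. Their median log2 difference was -3.07, or -2.98 with Bnc1 set at its bound, and 5 were lower with near-identical arrays counted once and 4 with the methods' paired test after Benjamini-Hochberg. Among them were Msln, which encodes mesothelin (-3.07), the transcription factor gene Wt1 (-4.86), the uroplakin gene Upk1b (-2.98) and the calretinin gene Calb2 (-1.86). The summed signal of the 9 mesothelial probes was 54940 to 60920 in normal lung and 6154 to 7087 in tumor, and 7 of them were still above background on each tumor array. Bnc1 was above background on none of the tumor arrays and was at least 2.59-fold lower. With marked spots kept, 7 of 8 tested mesothelial markers were lower, against 15.3% of all mRNA probes in that fit. Rspo1 (-0.47), named after its value was seen, was not called. The part of mesothelial cells in the Gpm6a difference was not tested.

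Of all mRNA probes tested, 16.8% were called lower and 11.5% higher, to be set beside the counts below. Endothelial markers were lower in 4 of 4 tested genes (Tek, Cldn5, Emcn and Sox17), with a median of -2.34. Summed signals here and below cover all probes of a list, tested or not, with marked spots included. These are 8 endothelial, 14 type 1, 10 type 2 and 25 liver probes. The endothelial sums were 363000 to 389400 in normal lung against 67060 to 71280 in tumor. Type 1 alveolar markers were lower in 5 of 11, with a median of -0.97 and summed signals of 1709000 to 1900000 against 680200 to 758000, and in 3 with near-identical arrays counted once. Ager (-1.38), Hopx (-1.41) and Clic5 (-1.68) were among the 5. Rtkn2 (1.00, not well above background in normal lung), Lmo7 (0.76) and Cldn18 (0.52) had differences above 0 and were not called; Lmo7 and Cldn18 were named after their values were seen.

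Type 2 alveolar markers were called lower in none and higher in 1 of 9, against 16.8% and 11.5% of all mRNA probes tested. Their median was 0.38, with summed signals of 1154000 to 1243000 against 1532000 to 1673000. The gene called was the lipid enzyme gene Lpcat1, named after its value was seen, whereas Sftpb (-0.30), Sftpa1 (-0.26), Sftpd (0.36) and Napsa (0.99) were not called. The count was 2 with the 75th percentile shift and 4 in the authors' normalized values. With marked spots kept it was 2 of 10, against 11.7% of all mRNA probes in that fit. There Sftpc (1.14), named after its value was seen, was called higher. Of 3 fibroblast markers tested with marked spots left out, Pdgfra was lower (-2.38), and the collagen genes Col1a2 (0.47) and Col3a1 (0.08) were not called. With marked spots kept, 3 of 9 fibroblast markers were lower, against 15.3% of all mRNA probes in that fit, and their median was -0.45. None of the smooth muscle markers Des (-0.71), Actg2 (0.11), Lmod1 (-0.15) and Smtn (-0.63) was called (median -0.39).

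Of 4 blood cell markers, Cd68 (0.75), Cd3e (-0.75) and the hemoglobin gene Hbb (-0.57) were not called. The B cell gene Cd79b was called higher, but no normal lung array measured it over background, and its bound was at least 1.59-fold. The call was lost with normexp, with a signal over background required on all 6 arrays, with the methods' t-test after Benjamini-Hochberg, with the median signal, with near-identical arrays counted once, and without normal lung 2, normal lung 3, tumor 1 or tumor 3. The median of this list was 0.09, or 0.05 with Cd79b at its bound.

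A list of liver genes, written after the nearest profiles had been seen, had 15 of 18 tested genes lower in tumor (12 with near-identical arrays counted once), with a median of -3.45, or -3.20 with Apoa2 and Apob set at their bounds. Of all mRNA probes tested, 16.8% were lower. Apoh, 1 of the nearest profiles, is in this list. With marked spots kept, 15 of 20 genes were lower and 2 higher, Kng1 (2.448) and Hp (2.015). These 2 were named after their values were seen. Alb, the gene of serum albumin, was lower by 3.41 on the log2 scale. The summed signal of this list was 145500 to 158300 in normal lung and 132500 to 145900 in tumor, much closer than its median, and the bright fibrinogen gene Fgg, named after its value was seen, had a log2 difference of 0.75. The part of these cell types in the Gpm6a difference was not tested. Gpm6a was picked for the size of its difference, so the smaller list medians follow from that choice and say nothing on these cell types.

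**Figure D5:**
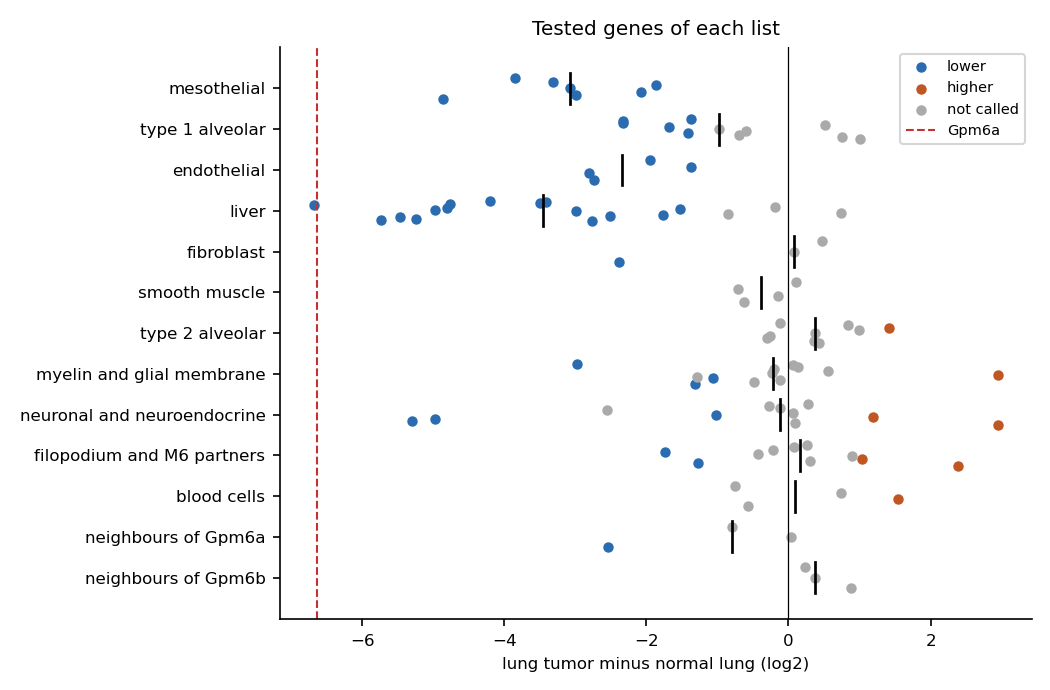
Lung tumor minus normal lung (log2) of each tested gene, in rows by gene list, with blue for genes called lower, orange for genes called higher, grey for genes not called, a black bar at each list's median and a red dashed line at Gpm6a. All mesothelial and endothelial points lie left of 0, and the Gpm6a line at -6.63 lies left of every point except 1 in the liver list.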

How the data were processed

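Total RNA of 8 samples was labelled with Cy3 and hybridised to a rat lncRNA and mRNA array of 24684 probes (15323 mRNA), and scans were read by Agilent Feature Extraction 10.5.1.1, with an array design on build rn4. The deposited scanner files give an intensity per spot, background-subtracted by that software (processed signal), and the median spot and background intensity. The deposited value table holds log2 signals that the authors quantile-normalized over all 8 arrays in GeneSpring; its column medians were 5.60 to 5.61, it followed the log2 processed signals (r 0.984 to 0.998), and it was used as an alternative.

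The processed signals were taken to log2 and quantile-normalized separately for lung (6 arrays) and blood (2 arrays). Outlier-marked spots were left out, repeat spots were averaged, and a probe had to be clearly over background in at least 3 lung samples, which left 12471 tested probes. Because the spots of Gpm6b were marked, its lung values came from the same fit with marked spots kept (15803 probes), a departure from the planned design; lists used the fit without them. A related gene of the planned comparison is not reported here. Groups were compared with limma 3.58.1 in R 4.3.3 (lmFit and eBayes, group only, Benjamini-Hochberg over all probes), and a call needed an adjusted p of at most 0.05 and at least 2-fold. The code was tested on simulated data. The number of arrays limits precision. Nothing in the labels states that samples of a group came from separate animals, so p-values measure the spread between these samples only. The paper calls the 3 tumors independent samples and the normal lung tissues matched.

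The genes named were Gpm6a and Gpm6b, the next 2 falls, the 5 and 3 closest profiles, the first 4 tested genes of each of the myelin and glial, filopodium, mesothelial, alveolar, endothelial, neuronal, fibroblast, smooth muscle and blood cell lists, and the tested neighbours. Members and lists were chosen with earlier results of these data known; the liver list and the median-signal alternative were added after seeing the data. Names came from RefSeq on GRCr8, which matched 14274 mRNA probes (93.2%), and no coordinates were converted. The NNK blood sample was grouped by its title, since its description names a lung tumor. Alternatives changed the scaling, background correction, floor, filters, marks, blocks, test and arrays used.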

Additional observations from a re-analysis of the deposited data

How the results depend on the processing

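Gpm6a stayed lower in lung tumor under each alternative. Its log2 difference was -6.35 after quantile normalization of all 8 arrays, -6.37 with normexp background correction, -6.36 in the authors' normalized values and -6.51 with the slide as a block, and -6.70 to -6.58 with 1 lung array left out in turn. Gpm6b was at least 2-fold different under none of the alternatives, but from the median signals (-0.98 ± 0.14, SE) it lay close to that limit. Its log2 difference was -0.44 to -0.24 with 1 lung array left out, the smallest without tumor 1, and its adjusted p ran from 0.000914 to 0.334 over the limma and t-test alternatives. Of all 12471 probes, 1929 were called lower and 1683 higher in tumor. These counts were 1256 and 968 with normexp, and 976 and 778 with near-identical arrays counted once. The methods' t-test called 1783 and 1499 at the methods' threshold and 1717 and 1416 after Benjamini-Hochberg, and its paired form 1688 and 1287, then 1469 and 1080. With 1 array left out they ranged from 1717 to 2061 and from 1484 to 1673; the causes were not tested. The labels call the tumors matched. Deviations of same-numbered normal and tumor arrays correlated at 0.14, -0.04 and 0.16, and those of differently numbered arrays at -0.19 to 0.14. The normal lung arrays differed by less than repeat spots, so this could not show whether the numbers pair them. With the replicate number as a block, Gpm6a was at -6.63 and Gpm6b at -0.34 (adjusted p 0.0909 from limma), and 1942 and 1614 probes were called. Of the counts over gene lists, without the runs that left 1 array out, 369 stayed within 1.5 times, 31 were smaller and 16 larger by more. Counts with no called gene in either fit are among the 369. Near-identical arrays leave few independent samples, 1 probe a gene cannot separate transcripts, and blood had no replicate.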
